A study of Mus musculus with 4 samples.

Results

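Bidirectional promoters are stretches of open chromatin from which a pair of genes on opposite strands is transcribed in opposite directions. The regions described here lie over such starts of protein-coding genes, in mouse embryo limbs of stage E11.5. Open chromatin was mapped by ATAC-seq, in which a transposase cuts and tags accessible DNA, and each library came with its own list of summits, the positions at which the signal peaks. Summits of the 4 lists were extended by 250 bp on each side and merged wherever they overlapped. A merged region was kept when it had a summit within 1 kb of the annotated starts of a minus-strand and a plus-strand gene that point away from each other and lie at most 1 kb apart. This rule gave 825 of 74669 regions. They lay at 777 of the 808 divergent pairs that the annotation holds, and the other 31 pairs had no summit within reach of both starts in any list. Of the 777 pairs, 715 had 1 region, 59 had 2 and 3 had 3, and 17 regions served 2 pairs each.

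The 2 stop cassette libraries came from embryos carrying a mutant allele made by inserting a stop cassette, an element that ends transcription early, and the 2 wild-type libraries from embryos without it. All 4 were made from dissected forelimbs and hindlimbs together, at the same stage and on the same mixed background (c57bl6.J X 129S6.sv). The cells were dissociated with trypsin and fixed before the transposition. The study concerns the lncRNA Maenli and the limb gene En1. The labels give neither the place of the insertion, nor its zygosity, nor how many embryos went into a library. The names inside both wild-type lists carry the same replicate number with a sub-number, so those libraries may be technical repeats, and the p-values measure only the spread between these libraries.

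In a divergent pair, a shared stretch of DNA, usually rich in the dinucleotide CpG, lies between starts that each recruit RNA polymerase. The arrangement is known for housekeeping genes, among them genes of DNA repair, of mitochondria and of the core histones H2A and H2B. TATA boxes are uncommon in such promoters, and sites for factors such as the ETS family, NRF1, YY1 and NF-Y are common.

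The lists held between 51701 and 107827 summits. The score of a summit behaves as −log10 of a q-value, with lowest values of 1.302 to 1.307, and was used only to rank summits within a list, as a percentile from 0 for the weakest to 100 for the strongest. The read depth is unknown. As a check of the tissue, 6 of 12 markers of limb mesenchyme (Prrx1, Twist1, Msx1, Hand2, Hoxd13 and Hoxa13) had a summit within 1 kb of the gene start in all 4 lists, and 3 (Prrx2, Tbx5 and Pitx1) had none in any. None of 5 markers of limb ectoderm, none of 3 of muscle precursors and none of 3 of blood was in all 4 lists, and the 3 blood genes, Alb, Apoa1 and Myh6 were in none. Of the ectoderm and muscle markers, Dlx5, Sp8 and Myod1 were in 3 lists and Pax3 in 2. Trp63, Fgf8 and Myf5 were in 1, and Krt14 in none. Of 3 endothelial markers Kdr was in all 4 lists and Pecam1 and Cdh5 in none. The neural gene Olig2 was in all 4 lists and the neural gene Neurod1 in 3.

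The DNA between the starts is printed here for the strongest and weakest pairs and for a pair known from textbooks, to show how little sequence separates the genes. Each line reads along the plus strand of mm9 (NCBIM37), from the base after the minus-strand start to the base before the plus-strand start. Capitals mark matches to GGGCGG (the SP/KLF box), CCAAT (the NF-Y box) or CACGTG (an E box) or to their reverse complements. No other motif that was searched matched in these stretches. The first group holds the 5 members with the highest mean percentile.

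Hjurp/Trpm8, chr1:90174209-90174235: ggggagggacgagagggagggtccgcc

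Cebpz/2410091C18Rik, chr17:79336411-79336474: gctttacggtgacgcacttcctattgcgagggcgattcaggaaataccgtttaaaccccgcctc

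Skp2/Lmbrd2, chr15:9070208-9070376: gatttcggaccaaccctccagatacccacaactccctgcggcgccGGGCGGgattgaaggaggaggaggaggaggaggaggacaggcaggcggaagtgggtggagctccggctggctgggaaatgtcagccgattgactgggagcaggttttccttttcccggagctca

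Gm10373/Ttc35, chr15:43308583-43308774: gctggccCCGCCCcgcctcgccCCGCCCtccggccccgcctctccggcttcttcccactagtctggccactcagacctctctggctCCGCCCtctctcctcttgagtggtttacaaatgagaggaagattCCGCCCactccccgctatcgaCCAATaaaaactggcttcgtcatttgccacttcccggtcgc

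Trove2/Uchl5, chr1:145624199-145624407: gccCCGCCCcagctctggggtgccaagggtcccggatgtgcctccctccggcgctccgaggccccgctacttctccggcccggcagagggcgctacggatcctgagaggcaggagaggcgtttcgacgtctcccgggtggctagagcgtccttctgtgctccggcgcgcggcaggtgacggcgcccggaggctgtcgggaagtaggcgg

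The next stretch belongs to a textbook pair with a gene of DNA repair, which is described with its values further on.

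Brca1/Nbr1, chr11:101413270-101413462: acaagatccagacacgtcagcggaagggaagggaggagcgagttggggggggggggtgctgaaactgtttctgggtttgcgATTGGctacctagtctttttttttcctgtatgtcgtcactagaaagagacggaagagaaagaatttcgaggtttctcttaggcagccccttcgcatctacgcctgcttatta

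The last group holds pairs with the lowest mean percentile among members held by all 4 lists.

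Col4a4/Col4a3, chr1:82583425-82583495: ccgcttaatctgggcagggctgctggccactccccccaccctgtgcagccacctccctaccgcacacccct

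Gm17649/Hoxc13, chr15:102751252-102751533: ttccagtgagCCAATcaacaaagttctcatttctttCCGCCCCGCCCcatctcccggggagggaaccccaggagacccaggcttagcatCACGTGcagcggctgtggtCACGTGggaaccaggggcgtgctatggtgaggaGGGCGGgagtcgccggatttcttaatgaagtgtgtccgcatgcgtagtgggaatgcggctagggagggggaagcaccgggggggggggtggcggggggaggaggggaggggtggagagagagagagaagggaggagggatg

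These stretches differed widely in composition. The stretch of Hjurp/Trpm8 was 27 bases long with 2 CpG, that of Trove2/Uchl5 209 bases with 24 CpG, and that of Col4a4/Col4a3 71 bases with 2 CpG. GC content was 77.8% for Hjurp/Trpm8, 50.3% for Brca1/Nbr1 and 69.0% for Col4a4/Col4a3. Over the 667 pairs with a member region and a stretch of at least 50 bases, the median was 62.5% GC with a CpG observed-to-expected ratio of 0.853. Over 30 such pairs without a summit the medians were 52.0% and 0.345.

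Nearly every member was open in every library. Stop cassette replicate 1 held 814 of the 825 members (98.7%) and replicate 2 held 805 (97.6%). Wild-type replicate 1 held 777 (94.2%) and replicate 2 held 785 (95.2%). All 4 lists held 771 members (93.5%), whereas 32.0% of all merged regions were in all 4 lists. Of the 12986 regions over single promoters, described further on, 80.1% were in all 4 lists. The order did not follow the length of the list throughout: stop cassette replicate 1, with 79083 summits, held more members than replicate 2 with 107827. Stop cassette replicate 1 alone held 16 members, and at 15 of these the same pair had another region in all 4 lists. Counted by pair, replicate 2 held more: 774 of 808 pairs had a summit within reach of both starts, against 766 in replicate 1. Over all regions, stop cassette replicate 1 held 61.1% and replicate 2 held 85.6%.

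The members also ranked high. The median percentile of the held members was 93.5 in stop cassette replicate 1, 95.5 in replicate 2, 90.8 in wild-type replicate 1 and 92.8 in replicate 2. Over all regions the medians lay between 57.7 and 59.6. In these 4 lists 53.2% to 81.0% of the held members stood above the 90th percentile, against 15.3% to 15.98% of all held regions. Among held single promoter regions 34.2% to 53.1% did. Among the 771 members in all 4 lists, 517 (67.1%) had a mean percentile above 90, 32 (4.15%) above 99 and 10 (1.30%) below 50. Over all 23894 regions in all 4 lists the shares were 25.5%, 1.46% and 16.1%. The percentiles of these members varied little between libraries, with a median SD of 3.07 over the 4 lists. Over all regions in all 4 lists the median SD was 10.6. Values near the top of a percentile scale, however, have little room to vary.

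**Figure D1:**
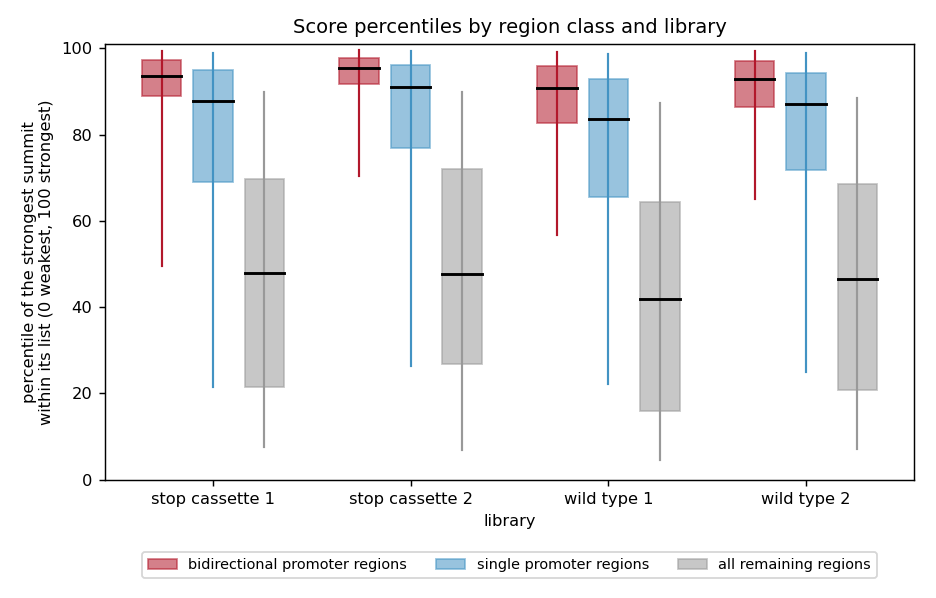
Percentile of the strongest summit of a region within its list (y axis, 0 weakest to 100 strongest) in the 4 libraries (x axis), with the median (black bar), the quartiles (box) and the 5th to 95th percentiles (line). The bidirectional promoter regions have medians of 90.8 to 95.5, above those of single promoter regions (83.7 to 90.9) in each library, and all remaining regions lie lower.

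Single promoters gave the nearest comparison. There were 20768 protein-coding genes outside any divergent pair, and 12986 regions with a summit within 1 kb of such a start. The share of annotated pairs with a summit within reach of both starts was 94.8% and 95.8% in the stop cassette lists and 94.6% and 95.2% in the wild-type lists. The share of single genes with a summit was 55.5%, 58.5%, 52.8% and 55.4% in the same order. The difference was 39.5 ± 1.81 percentage points (SD, n = 4 libraries) and had the same sign in 4 of 4 libraries. The exact sign-flip permutation test, two-sided, gave p = 0.125, the smallest value that 4 libraries allow. Single genes include many that limb cells are not known to use, and the expression of the genes was not measured here.

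Where both kinds of promoter were open, members ranked higher. Their median percentile exceeded that of single promoter regions by 5.72 and 4.62 points in the stop cassette lists and by 7.12 and 5.78 in the wild-type lists. The mean difference was 5.81 ± 1.03 points (SD, n = 4 libraries; exact sign-flip permutation p = 0.125, two-sided, the smallest possible). Members were also wider (median 1457 bp against 1183 bp) and held more summits (2.58 to 3.10 per held region and list against 2.24 to 2.56). With the mean percentile of a region's summits in place of the strongest, the difference was 5.21 points. In windows rich in CpG it was 3.96 points, over 716 members and 9348 single promoter regions, with the same sign in each list.

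The distance between the starts ranged from 1 bp, at Tubgcp2/Zfp511, to 987 bp, with a median of 141 bp and quartiles of 73 and 271 bp. Presence was slightly lower for wider pairs. By the rule, the stretch within 1 kb of both starts also shrinks as the starts move apart, and its part in this was not tested. Of the 298 pairs with starts up to 100 bp apart, 96.3% to 97.3% had a summit within reach of both, depending on the list. For the 339 pairs above 100 and up to 300 bp the share was 94.7% to 96.2%, and for the 171 pairs above 300 bp it was 90.6% to 92.4%. The shares of the closest and the widest class did not overlap. Median percentiles followed another order, with the middle class highest in each list: 95.1, 96.1, 92.0 and 94.3 in stop cassette replicates 1 and 2 and wild-type replicates 1 and 2. The closest class had 92.9, 94.9, 88.7 and 90.7 and the widest 93.2, 94.7, 90.7 and 93.2, in the same order. Just inside the limit of the rule, 22 pairs with starts 800 to 1000 bp apart had a summit in 20 or 21 cases per list and medians of 83.5 to 93.3. Just outside it, 31 pairs at up to 1200 bp had one in 15 to 21 cases and medians of 81.1 to 88.9.

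The strongest summit did not simply sit between the starts. Of the members held, the strongest summit lay between the starts in 42.3% and 43.6% in the stop cassette lists and in 44.5% and 42.3% in the wild-type lists. For starts up to 100 bp apart the share was 17.6% to 19.4%, and in the middle and the widest class it was 54.1% to 58.4% and 59.5% to 64.9%. A short stretch holds few positions in which a summit can fall. The median distance of the summit from the midpoint was 59.5 to 67.5 bp for the closest class, 69.3 to 79.5 bp for the middle class and 220 to 234 bp for the widest. The median signed offset lay between -3.50 and 3.00 bp in the 4 lists, with positive values towards the plus-strand gene.

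Seen by pair, the strongest summit within reach of both starts was inside the plus-strand gene at 25.5% to 27.2% of the pairs and inside the minus-strand gene at 26.5% to 28.5%, a median of 40.5 to 47.0 bp past the start. The class of position (between the starts or inside either gene) differed between libraries at many pairs. Where the starts are close, a small shift of the summit can change its class. Of the 760 pairs with a summit in all 4 lists, 340 (44.7%) had it in the same class in all 4. It was between the starts at 190, in the minus-strand gene at 79 and in the plus-strand gene at 71. At 162 pairs the summit was in the minus-strand gene in some lists and in the plus-strand gene in others. The strongest summits of a member lay a median of 25 bp apart in the stop cassette lists and 33 bp apart in the wild-type lists, and 34 to 36 bp apart in lists of different genotypes (n = 771).

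**Figure D2:**
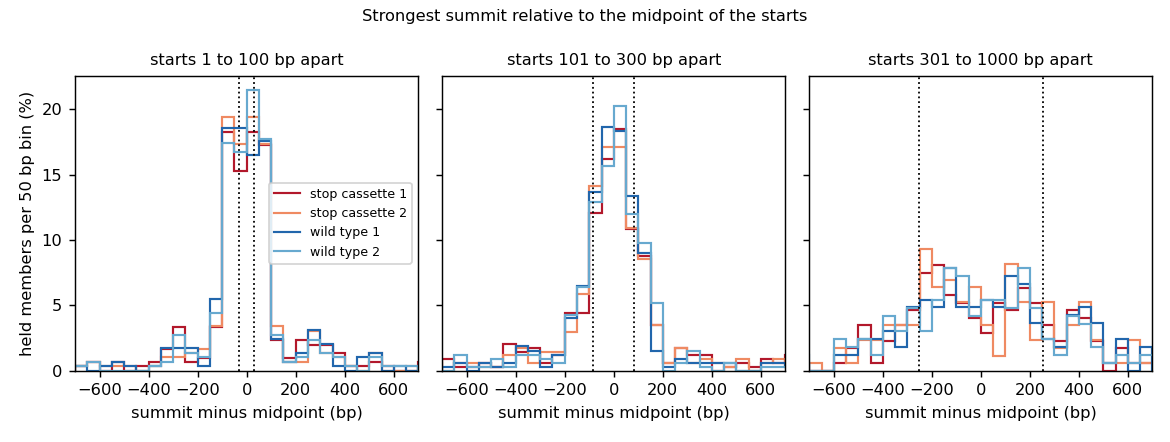
Distance of the strongest summit from the midpoint of the starts (x axis, bp, positive towards the plus-strand gene) as the percent of held members per 50 bp bin (y axis), for 3 classes of distance between the starts and 4 libraries (lines). Dotted lines mark the starts of a pair at the median distance of its class. Summits cluster around the midpoint in the closest and the middle class, and spread over the stretch in the widest class, where the median distance from the midpoint is 220 to 234 bp.

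Sequence composition was read in a window that extended 250 bp to each side of the strongest summit of a region. Members and single promoter regions had like GC content, with medians of 62.9% and 62.5%, against 47.5% in the remaining regions. The median CpG observed-to-expected ratio was 0.818 in members, 0.759 in single promoter regions and 0.242 in the remaining regions. More than 50% GC together with a ratio above 0.6, here called rich in CpG, was met by 716 of 825 members (86.8%), 72.0% of single promoter regions and 5.29% of the remaining regions.

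Motifs known from promoters were searched on both strands. The ETS core CCGGAAG, the site of a large family of activators, was in 270 members (32.7%), in 17.9% of 12984 single promoter windows and in 6.25% of all 74575 windows. The YY1 motif AANATGGCG was in 87 members (10.5%), 6.21% of single promoter windows and 1.80% of all. The NRF1 motif, GCGCA followed directly by its reverse complement TGCGC, was in 30 members (3.64%), 1.78% and 0.464%. The ZNF143 motif ACTACAA was in 60 members (7.27%), 4.69% and 4.83%. At least 1 of these 4 was in 380 members (46.1%) and in 27.2% of single promoter windows. In windows rich in CpG the ETS core was in 35.9% of members and 21.8% of single promoters, and YY1 in 11.3% and 7.86%, so the order was the same there. The window of a member can span both starts of its pair, which lay a median of 141 bp apart over all pairs. The part of this in the motif shares was not tested.

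Other motifs followed no single order. CCAAT was in 52.1% of members, 44.1% of single promoter windows and 48.2% of all windows. The SP/KLF box GGGCGG was in 79.3%, 74.9% and 28.5%, and in windows rich in CpG in 83.1% of members and 85.7% of single promoters. The cyclic AMP response element TGACGTCA was in 4.24%, 3.45% and 1.26%, and the E box CACGTG in 12.1%, 12.9% and 8.99%. The TATA box TATAAA was in 52 members (6.30%), 8.78% of single promoter windows and 24.3% of all. No motif contains another, and a match is a string of letters, not a bound site. Members with CCAAT had a median mean percentile of 94.5 and those without it 89.98, and for GGGCGG the values were 93.2 and 88.5. Members with TATAAA had 88.6 against 93.1 without it. The gap was small for the ETS core (93.5 and 92.4) and for the E box (92.5 and 92.8).

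**Figure D3:**
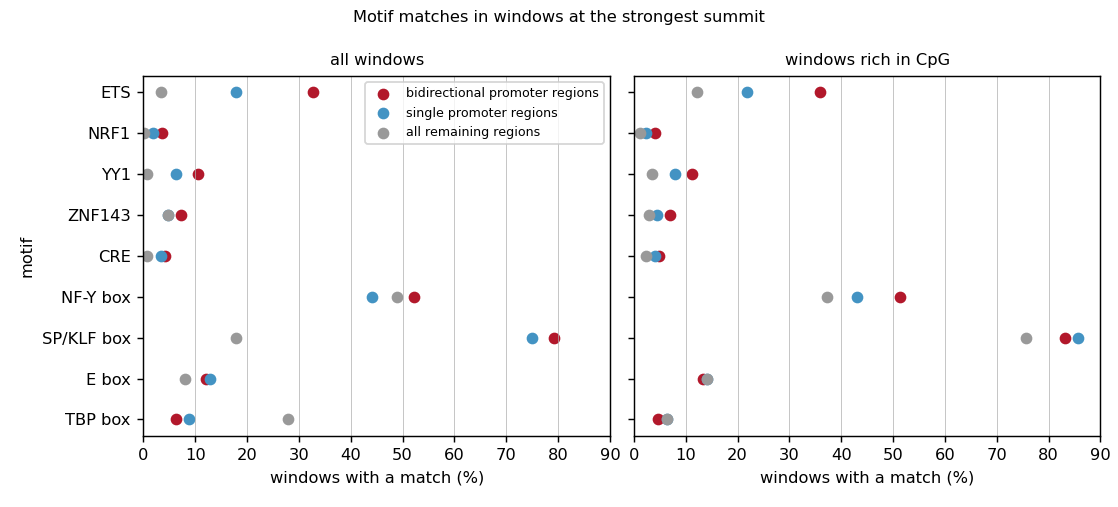
Percent of windows around the strongest summit with a motif match (x axis) for each motif (y axis), in all windows (left) and in windows rich in CpG (right), for members, single promoter regions and all remaining regions (points). ETS stands furthest to the right of single promoters among members, at 32.7% against 17.9%. The NF-Y box is the CCAAT motif and the TBP box the TATAAA motif.

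The 5 strongest members stood near the top of the scale in each list. The region of Hjurp, the chaperone that loads the centromeric histone, and Trpm8, a cold-sensing channel, was first. Its percentiles were 99.98 and 99.90 in the stop cassette lists and 99.99 in both wild-type lists, with starts at 90174208 and 90174236 on chromosome 1. Skp2, which selects substrates for a ubiquitin ligase, shared a region with Lmbrd2 on chromosome 15 at 99.88, 99.76, 99.47 and 99.75. Trove2, which encodes the Ro RNA-binding protein, shared one with Uchl5, a deubiquitinase of the proteasome, on chromosome 1 at 99.72, 99.40, 99.52 and 99.89. The other members of the first 5 were Cebpz/2410091C18Rik and Gm10373/Ttc35, with means of 99.72 and 99.64. So near the top, the scale leaves little room to vary.

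The 5 weakest members in all 4 lists had mean percentiles of 28.7 to 40.3. Col4a4/Col4a3, genes of the basement membrane collagen of the kidney glomerulus, had percentiles of 7.54 and 55.2 in the stop cassette lists and 4.54 and 47.5 in the wild-type lists. Both replicate 1 lists were low and both replicate 2 lists, the longer of each genotype, near the middle. At equal list length stop cassette replicate 1 held no summit there, and the other values were 6.62, 4.54 and 30.5. Gm17649/Hoxc13 on chromosome 15 had 40.4, 34.7, 27.5 and 15.3, and C2/Ehmt2 on chromosome 17 had 66.0, 24.3, 20.6 and 34.3. Ehmt2 encodes a histone H3 lysine 9 methyltransferase, and C2 a complement component. The other members of the lowest 5 lay to the side of their pairs. The summits of the 1810031K17Rik/Fam134a region were -903.5 to -1121.5 bp from the midpoint, on the side of the minus-strand gene, and the strongest summits within reach of both starts stood at 81.4, 87.7, 65.9 and 81.7. Ntrk3/Gm9885 had a strongest summit beyond 1 kb from the midpoint in 3 of 4 lists.

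Of 18 textbook pairs listed as divergent, 6 met the rule, and all 6 were held by all 4 lists. In 7 others, among them Hspd1/Hspe1, Col4a1/Col4a2, Ppat/Paics, Surf1/Surf2, Psmb9/Tap1 and Hars/Hars2, the annotated starts overlap, and in 5 they lie more than 1 kb apart. Among these, the starts of Tk1/Afmid and of Acat2/Tcp1 do not point away from each other in this annotation. Atm, the kinase that signals DNA double-strand breaks, and Npat, a regulator of histone genes, start 307 bp apart on chromosome 9. Their percentiles were 99.4 and 99.97 in the stop cassette lists and 97.5 and 99.7 in the wild-type lists. Mcm4, a subunit of the replicative helicase, and Prkdc, the kinase of end joining, had 96.3, 99.01, 93.7 and 97.1. Brca1, of homologous recombination, and the autophagy receptor gene Nbr1 had 96.1, 96.9, 90.9 and 92.2. Only Col4a4/Col4a3 among these 6 stood below the 90th percentile in any list.

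Gene groups entered divergent pairs to different degrees. Of all 22367 protein-coding genes, 1599 (7.15%) were in a pair. Of 77 genes of DNA repair and replication 21 were (27.3%), and of 194 genes matched by name as mitochondrial 42 (21.6%). Of 66 histone genes 27 were (40.9%), of 38 tRNA synthetase genes 7 and of 42 proteasome genes 5. Several lists, the mitochondrial one among them, were matches on the start of a gene symbol and can hold genes of other function. Of 372 zinc finger genes 19 were (5.11%) and of 144 genes matched as ribosomal proteins 10 (6.94%). None of the 49 genes on the list of limb development was in a divergent pair. That list held no gene of the HoxC cluster, and Hoxc13 is in a pair with Gm17649. The lists were chosen with earlier results of these data known, and these counts come from the annotation alone.

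Of all 808 pairs, 760 were in all 4 lists, and the counts of the groups read against that share. All 20 pairs with a repair or replication gene were in all 4 lists, with a median of the mean percentiles of 95.9, against 93.3 over all pairs with a summit. The highest were Rpa3/Gm16039 at 99.4, Mospd2/Fancb at 99.2, Atm/Npat at 99.2 and Trmt6/Mcm8 at 98.9. Rpa3 encodes a subunit of the single-strand binding protein, and Fancb a protein of the Fanconi anaemia pathway. Of the 41 mitochondrial pairs 40 were in all 4 lists, with a median of 93.2, led by Ptcd2/Mrps27, Ndufa5/Asb15, Ndufa4/Phf14 and Mrpl50/Zfp189 at 98.7 to 98.9. The exception was Eme2/Mrps34, which wild-type replicate 1 did not hold and which stood at 52.2, 54.0 and 46.7 in the other lists. All 7 tRNA synthetase pairs were in all 4 lists, with a median of 97.7, among them Wars/Wdr25, Orc3/Rars2 and Lyrm4/Fars2 at 97.7 to 97.9.

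Histone pairs ranked lower. Of 14 pairs, 11 were in all 4 lists and 3 in none, and the median over those held was 86.0. Hist1h2ah/Hist1h2bk, the highest, stood at 91.4 ± 3.20 (SD, n = 4), followed by Hist1h2an/Hist1h2bp, Hist1h2ac/Hist1h2bc and Hist1h2ak/Hist1h2bn at 89.0 to 91.3. The pairs in none were Hist1h2ap/Hist1h2br, Hist1h2bq/Hist1h2ao and Hist1h2ba/Hist1h2aa. Histone genes have near-identical copies and the peak names record a mapping quality of 30, whose part in the missing pairs was not tested. Ribosomal protein pairs had a median of 90.4, with 9 of 10 in all 4 lists. They were led by Rpl36al/Mgat2 at 95.6 and Rpl9/Lias at 93.3, and the match on names also took in Rps6kb1, which encodes a kinase. The 5 proteasome pairs were in all 4 lists at 78.9 (Dnajc2/Psmc2) to 97.5 (Mrpl32/Psma2), and 16 of 17 zinc finger pairs were, led by Tubgcp2/Zfp511 at 98.9.

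The 31 pairs without a summit included genes known from other tissues. Those with the closest starts were Dusp3/1700006E09Rik, Dgcr2/Tssk1, Rnf151/Rps2, Plcz1/Capza3 and Tcte3/2210404J11Rik, at 43 to 82 bp. Tssk1, Plcz1 and Capza3 are genes of spermatids, and the nearest summit of any list was 40488 bp from the Capza3 start. In the pairs of Dusp3, Dgcr2 and Rps2, which are widely used genes, the nearest summit lay 1551 to 2448 bp from either start. Chosen after their values were seen, Hspb2/Cryab, small heat shock proteins of muscle and lens, and Dnase2b/Uox, of lens and liver, had their nearest summits 5883 bp and 6666 bp from the closer start.

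Another 17 pairs had a summit in some lists only. Both replicate 2 lists and neither replicate 1 list held 7 of them, among them Smc1b/Ribc2, of which Smc1b encodes a cohesin subunit of meiosis, at 75.7 in stop cassette replicate 2 and 36.9 in wild-type replicate 2. Stop cassette replicate 2 alone held 3, namely Il11/Tmem190, Kirrel2/Nphs1 and Gm3417/9030025P20Rik. Both stop cassette lists alone held Tssk3/1700125D06Rik, at 2.53 and 37.1, and both wild-type lists alone held Haghl/Ccdc78, at 36.6 and 46.4. Both replicate 1 lists alone held Sirt1/Dnajc12, at 18.9 and 60.1. Replicate 2 is the longer list in each genotype. Over all regions, 6.57% were in both replicate 2 lists alone and 10.0% in both stop cassette lists alone. These pairs were chosen after their values were seen.

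To ask whether the stop cassette changed the bidirectional promoters, the members were compared between genotypes. The stop cassette lists held 98.1% ± 0.771 of the members and the wild-type lists 94.7% ± 0.686 (SD, n = 2 each). The difference was 3.45 percentage points, larger than either SD (exact permutation p = 0.333, two-sided, the smallest that 2 against 2 libraries allow). A summit in any list made a region a member, so members made by a single genotype counted as missing from the other. Stop cassette replicate 1 alone made 16 members and replicate 2 alone 4, and each wild-type list alone made 1. Counted by annotated pair, the stop cassette lists held 94.8% and 95.8% and the wild-type lists 94.6% and 95.2%. The stop cassette lists also held more of all regions (61.1% and 85.6%, against 41.1% and 53.9% in wild type) and of single promoter regions (90.6% and 96.4%, against 83.6% and 88.5%), with wider gaps than for the members. With 1 region per pair, the strongest, the difference in members held was 0.592 points. The strongest was the region with the highest mean percentile, a list without it counting as 0. That choice itself favours regions that all 4 lists hold. The median percentile of members was 94.5 ± 1.41 in the stop cassette lists and 91.8 ± 1.39 in the wild-type lists (SD, n = 2 each), a difference of 2.74 points (exact permutation p = 0.333). When each list was cut to its 51701 strongest summits the difference was -0.00145 points (exact permutation p = 1).

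There were 16 members (1.94%) with a summit in both stop cassette libraries and none in wild type. This pattern was found in 10.0% of all regions and in 3.14% of single promoter regions. The reverse pattern was found in 2 members (0.242%), against 0.313% of all regions and 0.146% of single promoter regions. At 15 of the 16 and at both of the 2, the same pair had another region that all 4 lists held. The 5 with the highest mean percentile were Foxa3/Sympk at 66.7 and 40.2, Nfya/AI314976 at 66.5 and 39.1, Tcf19/Cchcr1 at 40.5 and 63.9, Lyrm4/Fars2 at 71.9 and 26.7 and 1700021C14Rik/Cct3 at 43.8 and 45.8. Their nearest wild-type summits were 524 to 820 bp away. The 2 wild type-specific members were at Gm10517/Trp53bp2, at 76.5 and 73.3, and at Slc35a5/Atg3, at 49.2 and 76.9, with stop cassette summits 508 to 573 bp away. The exception among the 16 was Tssk3/1700125D06Rik.

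Among the 771 members in all 4 lists, both stop cassette percentiles were above both wild-type percentiles in 350 (45.4%) and below them in 43 (5.58%). Over all regions in all 4 lists, the shares were 38.9% and 3.47%, and over single promoter regions 40.5% and 4.19%. A percentile counts the weaker summits of a list, and each stop cassette list was longer than each wild-type list. At equal list length 163 members (21.3%) were higher and 136 (17.8%) lower, of 765 in all 4 lists, and 20.7% and 18.9% of all such regions were. For single promoter regions the shares were then 20.1% and 20.4%. The members' shares were thus near those of all regions at equal length, and above them in both directions for the lists as deposited. Single promoter regions were also above all regions in both directions as deposited.

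Members with the widest gaps between genotypes follow, first those higher with the stop cassette. The region of 5033414D02Rik and Cd274, which encodes the immune checkpoint ligand PD-L1, stood at 89.4 and 85.7 in the mutant lists and at 4.54 and 50.7 without it. Wild-type replicate 1 was far below the other 3 lists there. Its value of 4.54 is a tied rank near the bottom of that list, which Col4a4/Col4a3 shared. At equal list length the values were 83.8, 70.1, 4.54 and 34.7, and the groups still did not overlap. Abhd14a/Abhd14b on chromosome 9 had 62.5, 73.9, 27.9 and 29.0, and Pcnxl3/Map3k11 on chromosome 19 had 83.8, 90.3, 35.4 and 52.6. The strongest summits of these last 2 regions were 406 to 694 bp from the midpoint of the starts. The strongest summit within reach of both starts of Abhd14a/Abhd14b stood at 62.5, 91.9, 84.8 and 77.1, and these values overlapped between genotypes. For Pcnxl3/Map3k11 that summit stood at 85.1, 90.3, 53.6 and 78.1. The genotypes did not overlap there but lay closer together than for the whole region.

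The widest gaps in the other direction were narrower. Klhl29/2810032G03Rik on chromosome 12 stood at 78.3 and 86.2 in the stop cassette lists and at 91.8 and 92.7 in the wild-type lists. Pole3, which encodes a histone-fold subunit of DNA polymerase epsilon, had with 4933430I17Rik 90.6 and 93.8 against 99.1 and 97.5. Elavl1, the gene of the RNA-binding protein HuR, had with Ccl25 95.4 and 95.5 against 98.9 and 98.5. At equal list length Klhl29/2810032G03Rik had 66.8 and 71.3 against 91.8 and 90.4, and the other 2 pairs again did not overlap between genotypes. These regions were picked for their gaps and carry no test. The widest member, with 29 summits over 3715 bp, was Basp1/Gm5468 on chromosome 15, at 62.8, 80.8, 55.2 and 67.02, where the genotypes overlapped.

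**Figure D4:**
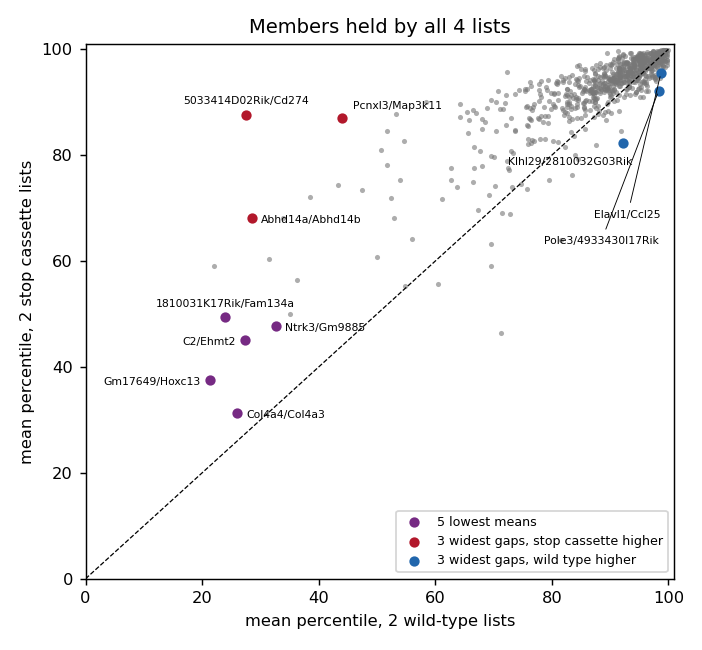
Mean percentile over the 2 stop cassette lists (y axis) against the mean over the 2 wild-type lists (x axis) for the 771 members held by all 4 lists (points), with the diagonal of equal values dashed. Most points crowd at the upper right, where 517 members have a mean above 90, and lie above the diagonal for the lists as deposited. Coloured points are the 5 members with the lowest means and those with the widest gaps between genotypes.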

How the data were processed

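The deposited lists hold 1 row per summit of 1 bp with a name and a score, 1 list per library. The deposited score was read as −log10 of a q-value, because its lowest value matches −log10 of 0.05 (1.30) and no header names it. Per the submitters' processing notes, Bowtie2 2.2.6 and Picard were used and the build is mm9. Per the peak names, duplicates and mitochondrial reads were removed at a mapping quality of 30. The peak caller, any control and any shift for the transposase are not given in the sources used here.

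The GENCODE M1 annotation and the NCBIM37 genome are of that build, and over 21 chromosomes 0 summits fell past an end. Of 307082 summits, 390 were on unplaced sequences without annotation. A gene start is the 5' end of a protein-coding gene record. A list held a region when it had a summit in it, and the percentile of a region is that of its strongest summit in the list, ties averaged. A GC check used windows with more than 50% GC and a CpG ratio above 0.6. Lists were compared by exact permutation tests over libraries, 6 assignments for 2 against 2 and 16 for sign flips over 4. The lists used here hold no read counts, so depth, counting intervals and a test on reads are not given. Alternatives were other extensions and distances, equal list length, a score above the pooled median of 5.83, autosomes, left-out libraries, other starts and CpG content.

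Named were textbook pairs, the 5 highest and lowest members, genotype-specific members (5 per direction), the 3 widest gaps per direction, the closest pairs without a summit, the widest member and the leading pairs of each gene list. The members and lists were chosen with earlier results of these data known. Values of some pairs that the rule names are not reported here. The region counting was tested on simulated data. Python 3.11.15, numpy 2.4.6, pandas 2.3.3 and matplotlib 3.10.9 were used.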

Additional observations from a re-analysis of the deposited data

How the results depend on the processing

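The difference between members and single promoters kept its sign under all alternatives run: 5.21 to 8.51 percentile points, 3.96 in windows rich in CpG, and 36.0 to 43.8 percentage points of pairs. Leaving out 1 library gave 5.50 to 6.41 points and 38.8 to 40.3 percentage points (exact sign-flip p = 0.25, the smallest for 3 libraries). The genotype difference in the median percentile changed sign at equal list length (-0.00145) and with the mean percentile of a region's summits (-0.549, exact permutation p = 0.667); it was 1.66 to 3.64 with 1 library left out. The difference in members held was 3.14 to 4.87 points with 1 library left out, 0.592 with an extension of 500 bp or with 1 region per pair, 0.549 with summits within 500 bp of both starts, 1.52 at equal list length, 7.67 above the pooled median score and 11.7 with an extension of 100 bp. The cause of these changes was not tested.

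With an extension of 100 bp, where fewer summits merge, all 4 lists held 1181 of 2230 members, 199 were stop cassette-specific, 69 wild type-specific, and 572 ranked higher with the stop cassette. The specific counts were 1 and 0 with 500 bp, 2 and 0 with summits within 500 bp of both starts, 29 and 1 above the pooled median score, and 1 and 0 with 1 region per pair. The choice of 1 region per pair itself favoured regions that all 4 lists held. At equal length 6 members were stop cassette-specific, and 163 ranked higher and 136 lower. A left-out library lets the remaining list stand for its genotype: 26 to 35 members were then specific to the stop cassette, 3 to 6 to wild type, 776 to 793 were in all lists, and 401 to 552 ranked higher and 60 to 148 lower.

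With the replicate number as a block the genotype differences were 3.45 and 2.74 points (exact sign-flip p = 0.5, the smallest for 2 pairs). The libraries share only a number: the differences of replicate 1 minus replicate 2 correlated across genotypes with r = 0.181 over 23894 regions. The alternatives with 1 region per pair and without overlapping starts were chosen after seeing the data. The mean percentiles of named pairs moved by more than their SD over the lists for 46 of 53 above the pooled median score, 11 of 54 at equal list length and 2 of 52 with summits within 500 bp. They cannot change with the extension.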

Other observations

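Head-to-head genes whose annotated 5' ends overlap by up to 1 kb, such as Hspd1/Hspe1, which encode the mitochondrial chaperonin, fell outside the rule, since their starts do not point away from each other. There were 406 such pairs, with a median overlap of 340 bp. Of these, 93.3% and 95.6% had a summit within 1 kb of both starts in the stop cassette lists and 92.6% and 93.6% in the wild-type lists. Their median percentiles were 92.8, 94.7, 87.4 and 90.9, and those of the 808 divergent pairs 94.1, 95.8, 91.4 and 93.1 in the same order, higher in each list. Leaving these genes out of the single promoters gave a difference of 6.01 percentile points between members and single promoters and 41.1 percentage points between pairs and single genes.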
